A study of Danio rerio with 8 samples.

Results

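The vesicular glutamate transporter genes slc17a6a and slc17a6b were followed across 8 single neurons of the CaD nucleus, a caudal group of brainstem neurons that send axons to the spinal cord. They are 2 of the 37287 features in the deposited table and were chosen by Ensembl ID (slc17a6a, ENSDARG00000001127, and slc17a6b, ENSDARG00000041150), not by their values. The gene name table used here lists both IDs under the symbol SLC17A6, and the letters a and b follow the assignment under which the pair was selected. The neurons came from Tg(Glyt2:GFP) larvae, written Tg (gly2:GFP) in the labels, of 12 to 14 days post-fertilization. They were filled from their spinal axons with a dextran dye, drawn into a glass pipette and sequenced as 1 library per fish (M1, M2, M5, M6 and M9, and M11, M16 and M17). The labels call all 8 glycinergic, so there is 1 group, with no treatment and no other cell type, and the GFP line marks cells through the promoter of the glycine transporter gene glyt2 (slc6a5).

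Neurons that release glutamate load it into synaptic vesicles with a vesicular glutamate transporter of the SLC17 family. The protein encoded by Slc17a6, VGLUT2, is the main such transporter of brainstem and spinal cord neurons, and zebrafish carry a pair of paralogs of the gene, slc17a6a (also vglut2b) and slc17a6b (also vglut2a). Inhibitory neurons use another vesicular carrier, Slc32a1, which takes up both glycine and GABA, and glycinergic neurons also have Slc6a5, the plasma membrane transporter that supplies them with glycine. The slc17a6 paralogs are widely used as markers of glutamatergic neurons, and slc6a5 as a marker of glycinergic ones.

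The libraries held between 9861756 and 47723986 counted reads, with M1 the deepest, and between 7224 and 13643 features at a level of at least 1 FPKM (fragments per kilobase of gene length, scaled to counted reads). M6 (13643), M11 (13335) and M1 (12900) had the most such features, and M5 was next with 11636. The summed slc17a6 level reached FPKM 1 in M6, M11 and M1 only. How far this bears on other genes detected in the same libraries was not tested. M1 could not be treated as independent of M11, M16 and M17. Where M11, M16 and M17 summed to 10 reads or more (17834 features), the reads of M1 equalled the sum at 43.7% of features and were not below it at 96.6%. The levels and detection of slc17a6a and slc17a6b are therefore given for 8 libraries and for the 7 without M1. Other genes are described over all 8 libraries unless stated, and there M1 is not a separate observation.

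The slc17a6 paralogs were at or near 0 in most of the CaD neurons. slc17a6b was at 13.98 FPKM in M11, 3.79 in M1, 0.422 in M6, 0.145 in M17, 0.0865 in M2, 0.0281 in M16, 0.0265 in M5 and 0 in M9. M11 stood 33.1-fold above M6, the next of the 7 libraries without M1, and at least 170-fold above the level that 3 reads would have given in M9. slc17a6a was at 1.81 FPKM in M6 and at 0 in the other 7 libraries. The 2 paralogs thus had their highest level in different cells, and M6 alone held reads of both.

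The summed level of slc17a6a and slc17a6b followed slc17a6b in every library but M6. It was 13.98 FPKM in M11, 3.79 in M1, 2.23 in M6 and between 0 and 0.145 in the other 5 libraries. The mean was 2.54 ± 4.83 FPKM (SD, n = 8) with a median of 0.116, and 2.36 ± 5.19 FPKM (SD, n = 7) with a median of 0.0865 without M1. The SD exceeded the mean because M11 alone set most of it. slc17a6b made up 100% of the sum in the 6 other libraries with any reads and 18.9% in M6.

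**Figure D1:**
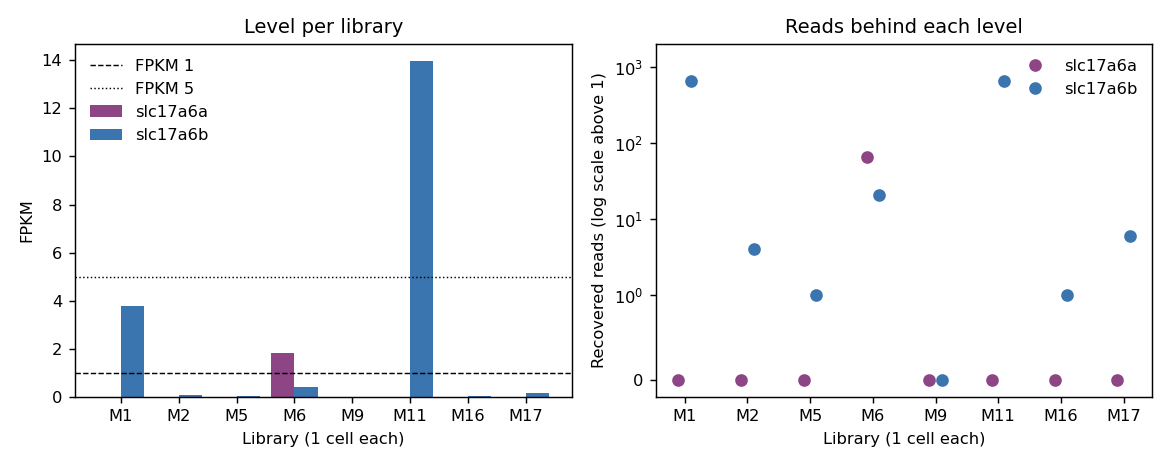
Level of slc17a6a and slc17a6b in FPKM (left, bars) and the reads behind each level (right, points, log scale above 1) in each of the 8 libraries. slc17a6b stands out in M11 at 13.98 FPKM and in M1 at 3.79, slc17a6a is seen in M6 alone at 1.81, and the dashed and dotted lines mark FPKM 1 and 5.

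Detection was equally uneven. At a limit of FPKM 1, slc17a6a was detected in 1 of 8 libraries (M6), slc17a6b in 2 (M1 and M11) and the summed level in 3 (M1, M6 and M11). Without M1 these numbers were 1, 1 and 2 of 7. At FPKM 5, slc17a6a was detected in 0 libraries, slc17a6b in 1 (M11) and the sum in 1, both with and without M1, where 35% of all features reached FPKM 5 in at least 1 of 8 libraries. Once each library was scaled to an equal FPKM total, M1 also passed this limit, at 5.73 for slc17a6b. Over all features, 57.7% reached FPKM 1 in at least 1 of 8 libraries, 44.5% in at least 2 and 36% in at least 3. Of the 21514 that reached it anywhere, 37.6% did so in only 1 or 2 libraries, so detection in few cells was common in these data and not particular to the slc17a6 genes. Detection in M11 alone of the 7 libraries without M1, as seen for slc17a6b, occurred at 6.63% of the features that reached FPKM 1 in any of them, and detection in M6 alone, as for slc17a6a, at 5.5%. Read by its highest library, slc17a6b was among the 25.3% of these features that were highest in M11, and slc17a6a among the 19.6% that were highest in M6. Detection in exactly 1 of the 7 libraries, whichever it was, occurred at 27.7% of them.

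**Figure D2:**
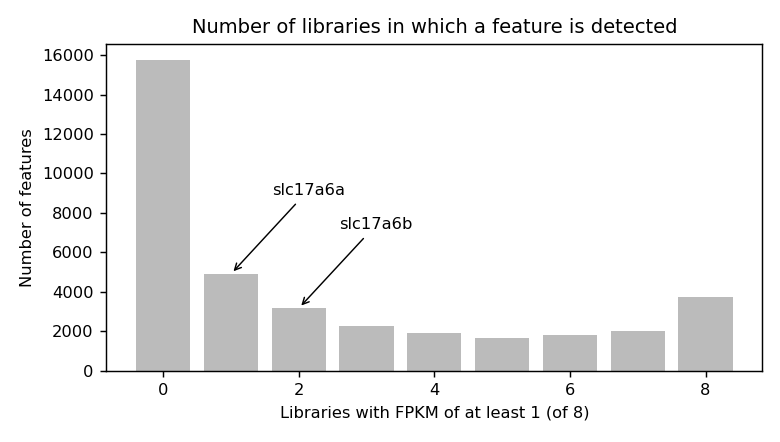
Number of features (y axis) that reached FPKM 1 in 0 to 8 libraries (x axis), with the places of slc17a6a (1 library) and slc17a6b (2 libraries) marked. The bars at 0, 1 and 8 libraries hold 15773, 4910 and 3743 features.

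The reads behind these levels showed how far the low values could be read. slc17a6b had 646 reads in M11, which is 50.5 RPM (reads per 1e6 counted reads, 95% Wilson interval 46.8 to 54.6), and 21 in M6, or 1.53 RPM (0.998 to 2.33). It had 6 reads in M17, 4 in M2, 1 in M5, 1 in M16 and 0 in M9. M11 therefore held 95.1% of the 679 slc17a6b reads of the 7 libraries without M1, and the 5 libraries other than M1, M6 and M11 held 12 reads together. slc17a6a had 65 reads in M6, or 4.72 RPM (3.71 to 6.02), the smallest number that gives its FPKM at a whole gene length. Such intervals describe the counting of reads alone, because amplification copies each molecule many times.

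A level of 0 had a narrow meaning at this depth. In M9, a count of 0 allowed up to 3 reads, which would have been 0.0823 FPKM for slc17a6b and 0.114 FPKM for slc17a6a at their recovered lengths of 3614 and 2608 bases. For slc17a6a the same limit lay between 0.0241 FPKM in M1 and 0.117 in M16 over the 7 libraries without reads. The slc17a6a length is the smallest that fits its reads in M6 alone, and its limits would be lower at a multiple of that length. An FPKM of 1 for slc17a6b stood for 35.6 reads in M16 and 172 in M1, so a cell below that limit could still hold several reads. In M11, slc17a6b was higher than 77.4% of the features with any reads, and in M6 slc17a6a was higher than 43.2% of them. In M5 and M16, by contrast, slc17a6b was higher than 0.782% and 1.14% of detected features, that is, at the level of a single read.

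The slc17a6b level of M1 went with that of M11. M1 had 654 slc17a6b reads, and M11, M16 and M17 had 653 together, 646 of them in M11. The difference was 1 read, and M1 was within 1 read of the sum at 55.6% of all features with at least 10 summed reads. slc17a6a had 0 reads in M1 and 0 in those 3 libraries. The second library with slc17a6b above FPKM 1 was thus no separate observation, and it fell away when M1 was left out.

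Of 3 features paired with SLC17A7 and SLC17A8, which encode VGLUT1 and VGLUT3, 0 reached FPKM 1 in any library. The same held for 15773 of all 37287 features. The SLC17A7 feature ENSDARG00000016480 was at 0.998 FPKM in M6, just under the limit, and at 0 elsewhere. That level rests on 5 recovered reads, the smallest number that gives it at a whole length. The other, ENSDARG00000090106, was at 0.119 FPKM in M9 and at 0 elsewhere, and slc17a8 was at 0 in all 8. M6 was thus the library with the most kinds of vesicular glutamate transporter RNA, at low levels of each.

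Genes on either side of vesicle loading were detected much more widely. Of 6 features for glutamate supply and clearance, 3 were at FPKM 1 or more in all 8 libraries. These were the glutaminase gene gls (ENSDARG00000040705), which makes glutamate from glutamine, at 8.65 to 44.0 FPKM, the neuronal glutamate uptake gene slc1a1 at 2.35 to 23.8 and the glutamine transporter gene slc38a2 at 16.9 to 58.2. Of 10 features for AMPA and NMDA receptor subunits, with which a neuron receives glutamate, 4 were at FPKM 1 or more in all 8 libraries, against 3743 of all 37287 features. The AMPA subunit gene gria4a ranged from 38.6 to 209 FPKM and the NMDA subunit gene grin1 (ENSDARG00000027828) from 41.4 to 127. RNA for receiving glutamate was thus also found in the 5 libraries below FPKM 1 for the summed slc17a6.

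For 2 receptor subunits, picked after their values were seen, 1 paralog was spread over all libraries and the other was at FPKM 1 or more in M1, M6 and M11 alone, as was the summed slc17a6. The second gria2 feature (ENSDARG00000052765) was at 13.2 FPKM in M11 and 2.13 in M6, and at 0.0662 at most in the other 5 libraries without M1. Its paralog ENSDARG00000070173 ranged from 2.68 to 48.7 FPKM over all 8. The second grin1 feature (ENSDARG00000025728) was at 15.8 FPKM in M11 and 2.83 in M6, and at 0.0217 at most in the other 5. Among all 21425 features that reached FPKM 1 in any of the 7 libraries, 2.95% did so in M11 and M6 alone.

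**Figure D3:**
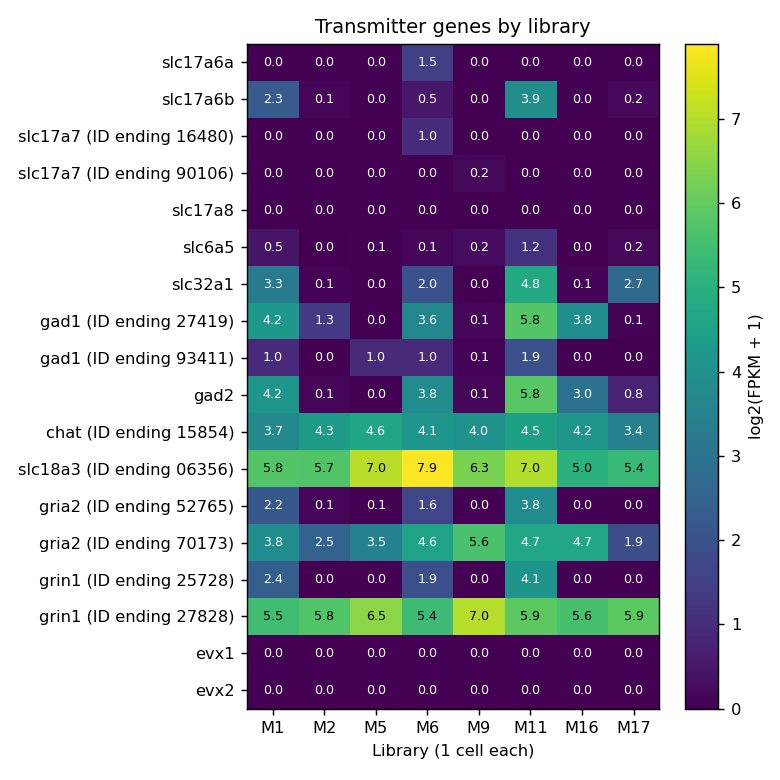
Level of slc17a6a, slc17a6b and other transmitter, receptor and identity genes as log2(FPKM + 1) (colour and number in each cell) in the 8 libraries. The slc17a6 and slc17a7 rows are near 0 outside M1, M6 and M11, slc6a5 reaches FPKM 1 in M11 alone, and the chat and slc18a3 rows are above it in all 8.

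The label of the cells was set beside the RNA level of its defining genes. The paper reports glycinergic and V0d markers in CaD neurons from single-cell sequencing. It also reports that strychnine blocked the inhibitory potentials which these V0d neurons evoked in motoneurons. RNA lost during capture of single cells was not measured here, so a low level below does not show that a cell is mislabelled. slc6a5, whose promoter drives the GFP of this line, was at 1.22 FPKM in M11, 0.371 in M1, 0.168 in M9, 0.116 in M17, 0.0685 in M6, 0.0361 in M5 and 0 in M2 and M16. It thus reached FPKM 1 in 1 of 8 libraries, with 83 reads in M11 and 9 at most in the other 6 libraries without M1. slc32a1 was at 26.9 FPKM in M11, 8.58 in M1, 5.64 in M17, 2.95 in M6, 0.0580 in M16, 0.0447 in M2 and 0 in M5 and M9. It reached FPKM 1 in 4 of 8 libraries, or 3 of 7 without M1, and FPKM 5 in 3 of 8. M11, with the most slc17a6b, also had the most slc6a5 and slc32a1. The GFP transcript itself was not analysed here.

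Within each library, the level of slc17a6 was set against that of the glycinergic genes, and the 2 paralogs against each other, on the log2(FPKM + 1) scale. slc17a6b minus slc17a6a averaged 0.47 ± 1.57 (SD, n = 7 libraries without M1), with a two-sided p of 0.531 from an exact permutation test and an adjusted p of 0.531. slc17a6b was higher in 5 libraries and slc17a6a in 1. The summed slc17a6 minus slc6a5 averaged 0.62 ± 1.12 (SD, n = 7; exact permutation test, p = 0.281, adjusted p = 0.422), higher in 5 of 7 libraries. The summed slc17a6 minus slc32a1 averaged -0.52 ± 0.95 (SD, n = 7; exact permutation test, p = 0.188, adjusted p = 0.422), lower in 4 and higher in 2. None of these 3 differences exceeded the spread between cells, and a p above the threshold does not show equal levels. Where no library is tied, 7 libraries allow an exact permutation p of 0.0156 at the smallest. M9 was tied at 0 in the comparison of the paralogs and in that with slc32a1, so the smallest possible p was higher there. Without M11 the mean difference between the paralogs turned from 0.47 to -0.098. Many of the directions rest on few reads. slc17a6b was above slc17a6a in M2, M5, M16 and M17 on 1 to 6 reads against 0. The sum was above slc6a5 in M2 on 4 reads against 0, in M16 on 1 against 0 and in M17 on 6 against 7. In these 2 comparisons, only M6 and M11 had either value at FPKM 1 or more. The sum was above slc32a1 in M2 on 4 reads against 2 and in M5 on 1 against 0. It was below slc32a1 in M16 on 1 read against 2. In M6, M11 and M17, where the sum or slc32a1 was at FPKM 1 or more, slc32a1 was higher.

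The libraries with slc17a6 at FPKM 1 or more also held at least 2 of 3 GABA synthesis features at FPKM 1 or more. So did M16. Of all 37287 features, 12900 were at FPKM 1 or more in M1, 13643 in M6, 13335 in M11 and 9754 in M16. gad2, encoding the glutamate decarboxylase that supplies GABA for vesicles, was at 56.7 FPKM in M11, 16.8 in M1, 12.9 in M6 and 6.92 in M16, and at 0.734 at most in the other 4. The gad1 feature ENSDARG00000027419 was at 54.2 FPKM in M11, 17.3 in M1, 13.2 in M16, 11.4 in M6 and 1.54 in M2, and below FPKM 1 in the rest. M1 was no separate observation for either gene. It had 2774 gad2 reads against 2772 in M11, M16 and M17 together, and 2383 reads of this gad1 feature against 2382. The other gad1 feature, ENSDARG00000093411, was at 2.81 FPKM in M11, 0.966 in M5, 0.964 in M1 and 0.938 in M6. Of the 3 features, 1 (gad2) had M11 and M6 as its highest 2 of the 7 libraries without M1, where 16.3% of all features did. M16 had GABA synthesis RNA with only 1 slc17a6b read, and M17 had slc32a1 with 6, so these genes were not confined to the cells with slc17a6.

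**Figure D4:**
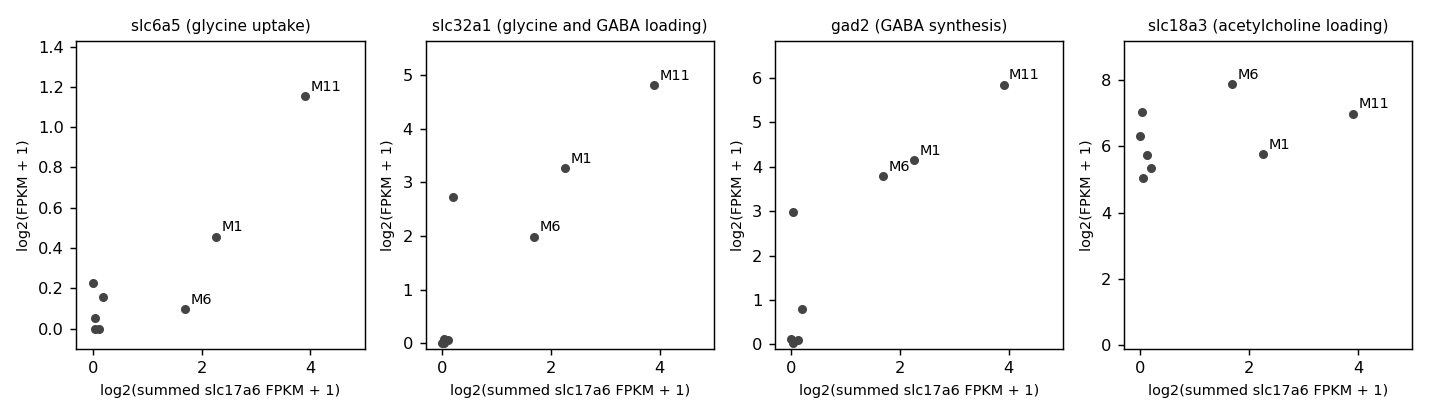
Level of slc6a5, slc32a1, gad2 and slc18a3 (y axes) against the summed level of slc17a6a and slc17a6b (x axis), all as log2(FPKM + 1), with 1 point per library. M11 is highest in the first 3 panels, whereas slc18a3 is above 32 FPKM in every library, with or without slc17a6.

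Of 3 cholinergic features, 2 were at FPKM 1 or more in every library, against 3743 of all 37287 features. chat, encoding the enzyme that makes acetylcholine, ranged from 9.86 FPKM in M17 to 24.1 in M5. The slc18a3 feature ENSDARG00000006356, encoding the vesicular acetylcholine transporter, ranged from 32.1 FPKM in M16 to 235 in M6. The other slc18a3 feature, ENSDARG00000107527, was at 2.64 FPKM in M6, 1.91 in M9 and 1.27 in M2 and at 0 in the other 5. In vertebrates slc18a3 lies within the chat locus, so reads of the pair may not be fully separate. Over the 8 libraries the sum of these cholinergic features was at least 49.1 FPKM, while the sum of the slc17a6 paralogs was at most 13.98. The pan-neuronal RNA-binding protein gene elavl3 was at 115 to 283 FPKM, so neuronal RNA was found in each library, those without slc17a6 included.

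Identity genes of the V0 classes were found unevenly. evx1 and evx2, which mark the excitatory ventral V0 neurons, were at 0 in all 8, as were 9790 of all 37287 features. M6 and M11 thus had reads of slc17a6 but none of evx1 or evx2. Of 8 features listed for dorsal V0 and related identity, lhx1a (3.07 to 25.6 FPKM) and lhx5 (1.67 to 51.0) were at FPKM 1 or more in all 8. The same held for 3743 of all 37287 features. dbx1 (ENSDARG00000001859) was at 1.76 FPKM in M6 and at 0.0558 at most elsewhere, and pax2 (ENSDARG00000028148) was at 19.6 FPKM in M11, 5.27 in M1 and 1.43 in M6, with 0.136 at most in the others. The other pax2 feature, ENSDARG00000032578, was highest in M2 at 9.66 FPKM, against 5.49 in M11 and 1.17 in M6, and pax7 (ENSDARG00000100398) was at 7.46 FPKM in M16 and at 0 in M6 and M11. The other dbx1 feature, ENSDARG00000086393, was at 0.152 FPKM at most, and the other pax7 feature, ENSDARG00000070818, at 0.0547 at most. The list as a whole thus did not follow slc17a6.

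RNA of glial cells moved with slc17a6 in part. The summed level of 9 radial glia and astroglia features was 10393 FPKM in M11, 3280 in M1 and 3076 in M6, against 105 to 1219 in the other 5 libraries. Of the 8 of these that reached FPKM 1 in any of the 7 libraries without M1, 6 had M11 and M6 as their highest 2, where 16.3% of all features did. The fatty acid binding protein gene fabp7 (ENSDARG00000007697) was at 8963 FPKM in M11 and 1975 in M6, and at 569 at most in the other 5 without M1. slc1a2 (ENSDARG00000102453), a glial glutamate uptake gene, was at 129 FPKM in M11 and 133 in M6 and at 33.3 at most in those 5. This fabp7 feature alone made up most of the summed level in M11 and M6. The glial marker gene gfap was highest in M11 at 24.2 FPKM, but its 9.79 in M6 was below M2 (12.5) and M16 (11.5). slc1a3 feature ENSDARG00000104431 was highest in M16 at 5.897 FPKM, against 3.117 in M11, and was below FPKM 1 in M6. The defining markers of this list were thus not at 0 in M11 or M6, except slc1a2 feature ENSDARG00000052138, which was at 0 throughout. The part of glial RNA in the slc17a6 values was not tested.

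Other cell types did not follow slc17a6 in the same way. The summed level of 4 oligodendrocyte and Schwann cell features ran from 502 FPKM in M5 to 36900 in M1, with 21248 in M11 and 921 in M6. The myelin gene mbpa made up most of it. The 2 microglia features summed to 227 FPKM in M16, the highest, then 104 in M6, 69.1 in M1 and 61.9 in M11. In M2, M5, M9 and M17 the sum was between 2.297 (M9) and 20.5 (M17), so it was lower there than in M6 and M11. The red blood cell gene hbaa1 was at 1.08 FPKM at most. Their part in the slc17a6 values was not tested either.

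Among the 9784 features at FPKM 1 or more in at least 4 of the 7 libraries without M1, the 5 named ones most like the summed slc17a6 level were pcp4, psph, crabp1, pde12 and lin7c, by Pearson correlation on log2(FPKM + 1). Their r lay between 0.958 (lin7c) and 0.976 (pcp4), and 36 of the 9784 features reached 0.9. Features detected in fewer libraries were not ranked, and of those in the lists, 4 had a higher r: gria2 (ENSDARG00000052765) with 0.999, the glial gene slc1a3 (ENSDARG00000043148) with 0.998, grin1 (ENSDARG00000025728) with 0.998 and pax2 (ENSDARG00000028148) with 0.991. Those 4 were at FPKM 1 or more in M11 and M6 alone of the 7 libraries and higher in M11, as was the summed slc17a6. A high r follows from that shape and adds nothing to it. All these values are descriptive, over 7 points that share library depth and composition, and M11 carries much of them. Without M11, r of the 5 ranked features was between 0.85 (crabp1) and 0.921 (pde12). The calmodulin-binding peptide gene pcp4 was at 271 FPKM in M11 and 50.7 in M6 and at 9.37 to 26.4 in the other 5. The retinoic acid-binding protein gene crabp1 was at 587 FPKM in M11 and 138 in M6 and at 26.0 to 67.9 in those 5. Unlike slc17a6, each of the 5 ranked features had reads in every library.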

How the data were processed

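RNA of 8 single CaD neurons was amplified with SMART-Seq v4 and sequenced as paired reads. The submitters' processing notes name HISAT2 2.0.4 and HTSeq 0.9.1, and the study's methods name another HTSeq version. The deposited values are FPKM, for which the authors divided the reads of a gene by its length and by the reads of the library. The genome build and annotation are not given in the sources used here, so no coordinates are printed.

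Whole reads were recovered from the FPKM. Each library total was found as the common divisor of the values' inverses, and each length as the smallest whole number that gave whole reads in all libraries. The recovered reads came to 99.9% of each total. The recovery was tested on simulated data. For a feature seen in 1 library, such as slc17a6a, reads may be a whole multiple of the number given.

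Symbols were matched by a gene name table that covers 29178 of the 37287 features. Of 55 listed symbols, 3 had no match (slc38a1, mpeg1.1 and hbba1). Another listed gene is not reported here. Where the table drops the paralog letter, all features with the symbol were taken and are given by ID. Named genes are the members, the list genes and the 5 features most like the summed level. Members and lists were chosen with earlier results of these data known.

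Paired differences in log2(FPKM + 1) were tested with exact permutation tests over all 128 sign changes, with Benjamini-Hochberg adjustment over 3 tests. The design text gives 1 cell per fish, so the p-values set a mean difference against its spread between single cells of different fish. Alternatives were other limits, pseudocounts, scalings and library sets. Python 3.11.15, numpy 2.4.6, pandas 2.3.3, scipy 1.17.1 and matplotlib 3.10.9 were used.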

Additional observations from a re-analysis of the deposited data

Results flagged for a closer look

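Of 6 measures compared between libraries, all 6 had 1 library far from the rest. Chance gives this for about 1 in 20 measures with normally distributed values, which these are not, as most lie at or near 0. For slc17a6a and for the share of slc17a6b, all libraries but 1 had the same value, which fixes the gap at the whole range. The gap to the nearest library, as a share of the whole range, was 1 for slc17a6a (highest in M6) and 0.729 for both slc17a6b and the summed level (highest in M11), above Dixon's critical value of 0.526 for 8 libraries. It was 1 for the share of slc17a6b in the sum (lowest in M6, critical value 0.568 for the 7 libraries with reads), 0.697 for slc6a5 and 0.682 for slc32a1 (both highest in M11). The measures are not independent of each other, since the sum and the share contain the single genes, and M1 is not independent of M11.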

How the results depend on the processing

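Detection depended on the limit. With FPKM 5 in place of 1, slc17a6a went from 1 library to 0, slc17a6b from 2 to 1 and the sum from 3 to 1. With any FPKM above 0, slc17a6b and the sum were each detected in 7. Leaving out M1 gave 1 for slc17a6b. As alternatives added after the data were seen, dropping M1 with M11 gave 0 for slc17a6b and 1 for the sum, and leaving out M1 and M6 gave 0 for slc17a6a, 1 for slc17a6b and 1 for the sum. A library cannot be counted once it is left out, which by construction lowers these numbers. A limit of 10 reads gave 1 library for slc17a6a, 3 for slc17a6b and 3 for the sum, and rescaling to the same total moved no count at FPKM 1. At FPKM 5, in an alternative added later, it gave 0, 2 and 2 libraries. Leaving out each library in turn kept the median FPKM of slc17a6b and of the sum between 0.0865 and 0.145 and that of slc17a6a at 0. From a main value of 0.116, the first 2 medians rose to 0.182 on rescaling and to 0.239 with the highest feature left out.

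Over 12 alternatives each, the 3 paired tests gave adjusted p-values from exact permutation tests between 0.188 and 1. The mean difference of slc17a6b and slc17a6a reversed only without M11 (-0.098). Over all alternatives it ranged from -0.098 to 1.46, that from slc6a5 from 0.26 to 2.17 and that from slc32a1 from -1.24 to -0.19. The largest differences came from leaving out libraries with both values under FPKM 1, which left 2, 2 and 3 libraries, and a pseudocount of 0.1 gave 1.17, 1.02 and -0.78. Leaving out each library in turn gave -0.098 to 0.72, 0.26 to 0.76 and -0.62 to -0.19. The cause was not tested. No paired analysis was possible because there is 1 group, and the tests above pair genes within a library. At an FPKM under 0.1, a slc17a6b level rests on fewer than 10 reads in every library other than M1.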
